A study of Schizosaccharomyces pombe with 3 samples.

Results

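The genes described here are those that the authors of the study called as differing between fission yeast cells grown in 8% glucose (the T3 sample) and in 3% glucose (the T1 sample). All 367 genes listed in the first sheet of the authors' table for that comparison were taken, out of 444 genes called in any comparison of the series. Both samples were wild type Schizosaccharomyces pombe of strain 972 h-, which carries the M mating type. Cells of a single colony were inoculated into SD medium holding the stated glucose from the start and were harvested in mid-log phase at 30°C. Polyadenylated RNA was sequenced as 1 library per concentration, each pooled from 3 cultures, so no difference has a replicate check and no p-value was computed.

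Glucose is the preferred carbon source of S. pombe, and when it is plentiful the cell represses genes for the use of other carbon sources. The signal passes through a G protein and adenylate cyclase to the cAMP-dependent kinase PKA, and the zinc finger repressor Scr1 acts on many of the repressed genes. PKA signalling also holds back the general stress response and sexual differentiation, which fission yeast otherwise enters when nutrients run out.

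The ratio of counts to FPKM (fragments counted for a transcript, scaled by its length and by the size of the library) corresponded to 5818648 fragments in T3 and 5744686 fragments in T1, so the 2 libraries were of nearly equal depth. Every fold given is a ratio of FPKM values, with in parentheses the 95% exact Clopper-Pearson interval from the counts of both libraries. Intervals cover counting error only and say nothing of the spread between cultures. Among the genes, 26 had fractional counts, the sign of reads divided among similar sequences, and 7 of the 367 were at 0 in a library after rounding. For these 7 a lower bound of the fold is given, which takes 3 counts as the floor of the empty library. In RNA from whole cultures, fewer cells that express a gene and less of its RNA per cell cannot be told apart. Of 8 genes that mark M cells, mam2 and mam3 were among the called genes, and of 5 genes that mark P cells none was. A gene that was not called has no value here, and since 29 entries carry no gene name, a listed gene counted as not called was one not found by name. The share of all genes of the cell that was called was not computed. Counts of called members of a list therefore do not show whether the list was called more often than other genes, which was not tested.

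In T3, 235 genes were higher than in T1 by at least 2-fold (64.0% of the 367) and 132 were lower (36.0%). The call itself asked for a 2-fold difference, so these shares describe the table and are no evidence that most genes of the cell went up. The genes nearest to that limit were apc2, with a log2 ratio of 1.01, and slu7, with a log2 ratio of -1.01. At least 4-fold higher in T3 were 38 genes (10.4%), and at least 4-fold lower were 23 (6.27%). With the whole counting interval required to lie beyond 2-fold, 125 higher genes (34.1%) and 89 lower genes (24.3%) passed. The lower genes were the more abundant. Summed over the higher genes the level was 25720 FPKM in T3 against 9571 FPKM in T1, and summed over the lower genes it was 24766 FPKM in T3 against 67278 FPKM in T1.

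**Figure D1:**
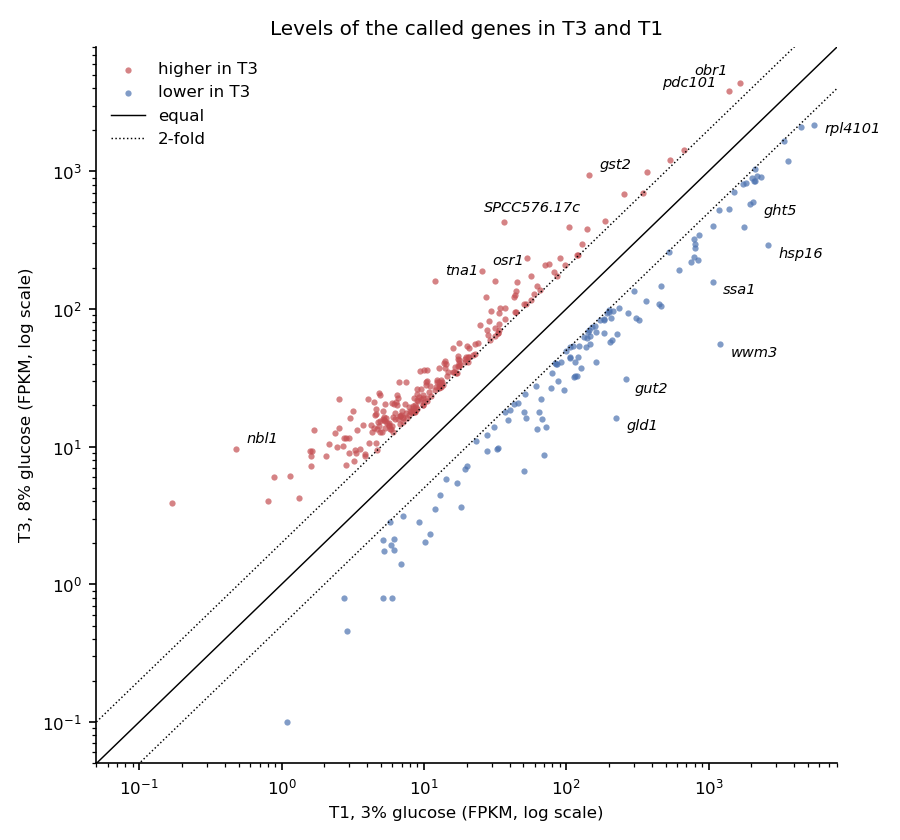
Level of each called gene in T3 (vertical axis) and T1 (horizontal axis), in FPKM on log scales, without the 7 genes at 0 in a library. Red points are higher in T3 and blue points lower, the solid line marks equal levels and the dotted lines 2-fold. Blue points reach further to the right, up to rpl4101 at 2177 FPKM in T3 and 5528 FPKM in T1.

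Direction went along with the length of the transcript and, from 10 FPKM up, with its level. Only 10 of the 31 genes shorter than 600 bases were higher in T3 (32.3%), against 28 of 56 genes from 600 bases up to 1000 (50%), 77 of 115 from 1000 bases up to 2000 (67.0%), 65 of 91 from 2000 bases up to 3000 (71.4%) and 55 of 74 of 3000 bases and over (74.3%). The median length was 2018 bases for the genes higher in T3 and 1316 bases for the genes lower in T3. By level in the higher library, 119 of 132 genes between 10 and 30 FPKM were higher in T3 (90.2%), but only 4 of 26 genes at 1000 FPKM and over (15.4%). Those 4 were obr1, pdc101, SPAC977.14c and sua1. Many of the short and abundant genes encode ribosomal proteins and histones. The part that transcript length has in these ratios was not tested.

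**Figure D2:**
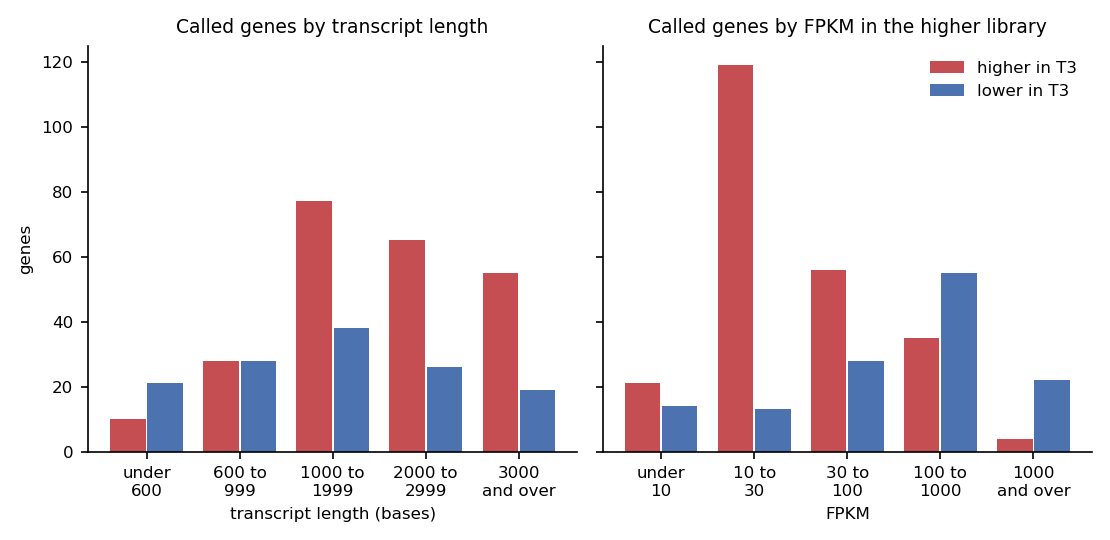
Number of called genes higher in T3 (red, left bar) and lower in T3 (blue, right bar) by transcript length in bases (left panel) and by FPKM in the higher library (right panel). Genes higher in T3 are the fewer below 600 bases, 10 against 21, and the more from 1000 bases on.

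A function was given to 300 of the 367 genes from the annotation, by hand and with the values known, in 32 groups. The number of groups with a single direction depends on this sorting. In 6 groups every called gene was lower in T3, namely sugar uptake and use, glycerol use, general stress and trehalose, cytosolic ribosomal proteins, ribosome synthesis and core histones. In 7 groups every called gene was higher in T3, namely cell polarity, chromatin and RNAi silencing, mitochondrial translation, autophagy and peroxisomes, ubiquitin, ethanol formation and the Tf2 retrotransposons. The other 19 groups, counting the 67 genes without a function apart, held genes of both directions. Most of these leaned to the higher side, as the 64.0% of all genes did.

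**Figure D3:**
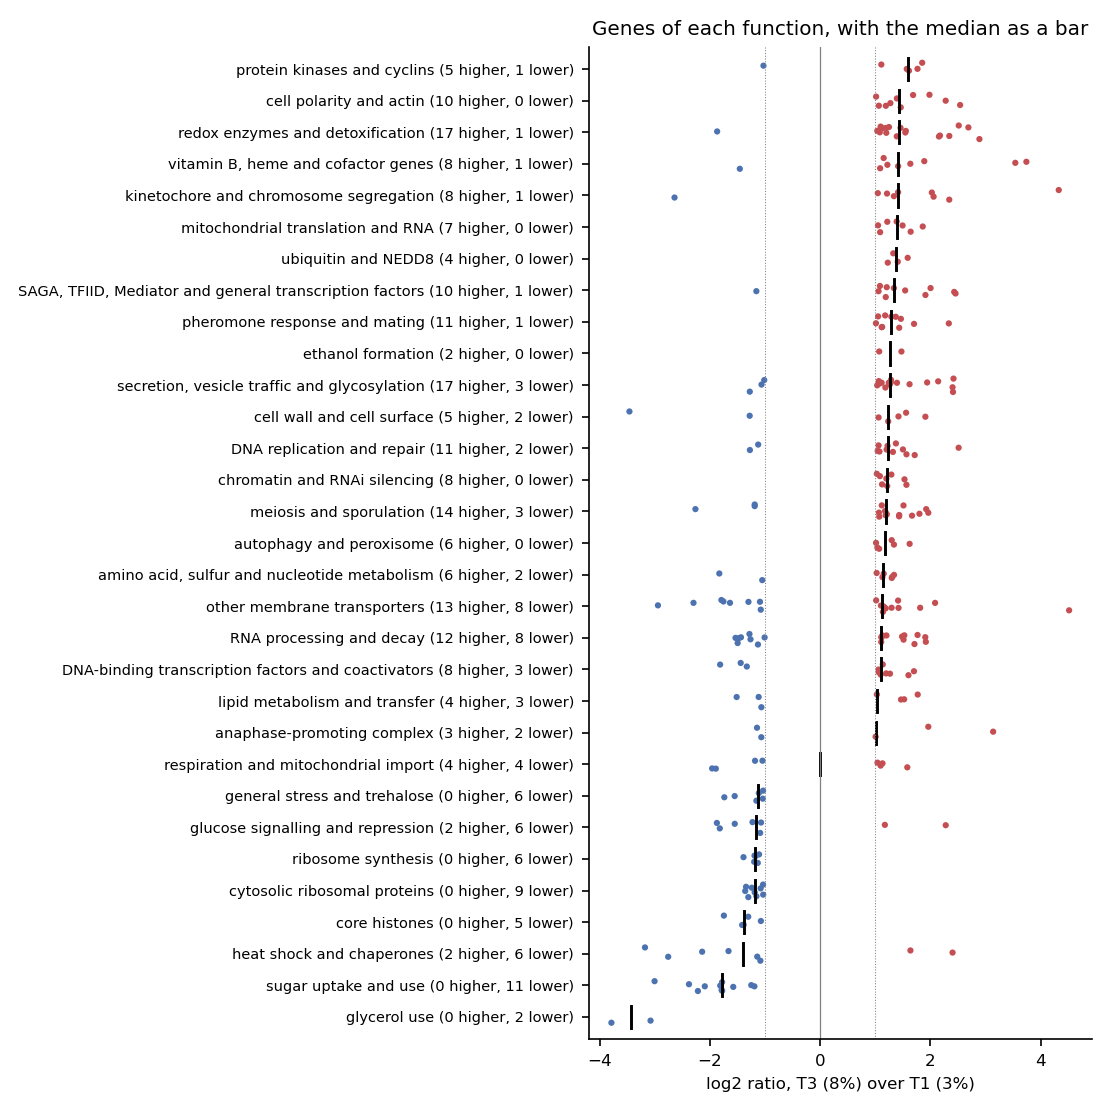
Log2 ratio of T3 over T1 (horizontal axis) for the called genes of each function, a point per gene, with the median as a black bar. Red points are higher in T3 and blue points lower, dotted lines mark 2-fold, and the Tf2 group and genes at 0 in a library are left out. Glycerol and sugar use lie furthest to the left, with medians of -3.43 and -1.79.

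All 11 called genes of sugar uptake and use were lower in T3. The hexose transporter genes ght5 and ght1, which encode high-affinity glucose carriers of the plasma membrane, had 7507 and 150.3 counts in T3 against 25462 and 1186 counts in T1. Both had fractional counts, and the other 6 hexose transporter genes of the annotation were not found among the called genes. Secreted invertase, which splits sucrose, is encoded by inv1, at 37.0 FPKM in T3 against 127 FPKM in T1. The maltase gene agl1 had 377 counts in T3 against 1583 counts in T1. Less often named with them are SPAC2F3.05c, annotated as a xylose and arabinose reductase, which was 2.38-fold lower in T3 (2.14 to 2.65), and gti1, an inducer of gluconate uptake, which was 2.28-fold lower (2.05 to 2.55). The gene gcd1, described in the table as a probable glucose-6-phosphate dehydrogenase, stood at 58.0 FPKM in T3 against 204 FPKM in T1. Sugars other than glucose were thus represented by genes for galactose, maltose, sucrose, pentoses and gluconate, all lower at 8% than at 3% glucose. These levels did not fall steadily with glucose. At 5% glucose ght5, ght1, inv1, agl1 and gcd1 each stood above both other libraries. For agl1 the levels were 67.4, 301 and 15.8 FPKM at 3%, 5% and 8% glucose, and for inv1 127, 272 and 37.0 FPKM.

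The galactose genes lie within a block on chromosome II whose names begin with SPBPB2B2, and in assembly ASM294v3 this block holds 17 protein-coding genes. Of these, 9 were called and all 9 were lower in T3, with a median log2 ratio of -1.71 and a range of -2.38 to -1.30. Besides gal7, tgd1, gal10 and gal1 they were nrg1, which encodes an amino acid permease, the sterol deacetylase gene say1, SPBPB2B2.05, SPBPB2B2.06c and SPBPB2B2.08. The genes tgd1 and gal10 overlap, and their reads may not be separable. The permease gene nrg1 had 26 counts in T3 against 63 counts in T1 (2.46-fold lower, 1.54 to 4.05). The phosphatase gene SPBPB2B2.06c had 276 counts in T3 against 815 counts in T1 (3.00-fold lower, 2.62 to 3.46). The uncharacterized SPBPB2B2.08 rested on 11 counts in T3 against 35 counts in T1. The lower genes thus included some at one side of the galactose genes that are not annotated for galactose use. At the other side SPBPB2B2.14c and the 5 genes after it were not found by name, but an unnamed entry whose protein match gives SPBPB2B2.16c together with its copy SPAC750.02c had 5.14 counts in T3 against 24.4 counts in T1 (4.91-fold lower, 1.85 to 16.6), on divided reads. Of the 7 block genes with a value at 5% glucose (the T2 sample), 6 were higher there than in T1, and SPBPB2B2.05 had 18.2, 9.57 and 3.62 FPKM at 3%, 5% and 8% glucose.

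**Figure D4:**
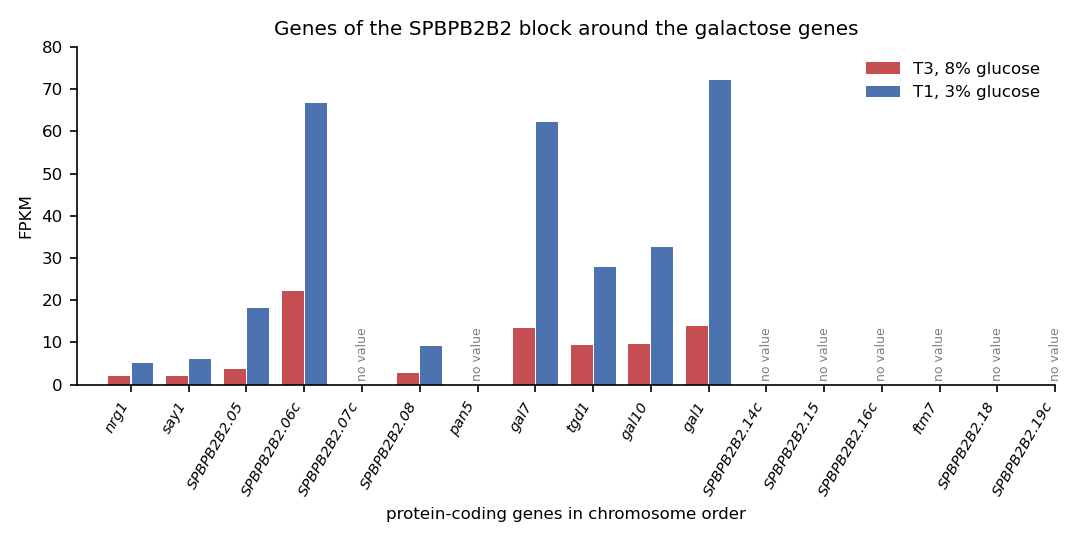
FPKM (vertical axis) of the 17 protein-coding genes of the SPBPB2B2 block in chromosome order, in T3 (red, left bar) and T1 (blue, right bar). The 9 called genes are all lower in T3, such as gal1 at 13.9 FPKM in T3 and 72.1 FPKM in T1, and the genes that were not called carry no value.

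The called genes of glycerol use were also lower. The gene gut2 encodes the mitochondrial glycerol-3-phosphate dehydrogenase and gld1 the glycerol dehydrogenase, and they had 482 and 223 counts in T3 against 3998 and 3024 counts in T1. Both were highest at 5% glucose, gut2 at 263, 339 and 31.2 FPKM and gld1 at 224, 411 and 16.2 FPKM at 3%, 5% and 8% glucose. The 2 were the only ones called of 8 genes listed for glycerol use and synthesis. SPAC22F8.05, annotated as a trehalose-phosphate synthase, was 2.05-fold lower in T3 (1.92 to 2.18). At the other end of sugar breakdown, pyruvate decarboxylase turns pyruvate into acetaldehyde on the way to ethanol. Its gene pdc101 had 40908 counts in T3 against 14448 counts in T1, the largest count in T3 of any called gene. The alcohol dehydrogenase gene adh8 was 2.10-fold higher in T3 (1.76 to 2.52), at 46.3 FPKM in T3 against 22 FPKM in T1. No other of 20 listed genes of glycolysis and ethanol formation was found.

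Several parts of the glucose signal were themselves lower in T3. The regulatory subunit of PKA, which holds the kinase inactive without cAMP, is encoded by cgs1, at 17.7 FPKM in T3 against 64.9 FPKM in T1 (3.66-fold lower, 3.17 to 4.24). The phosphodiesterase that breaks cAMP down is encoded by cgs2, at 32.0 FPKM in T3 against 113 FPKM in T1 (3.53-fold lower, 3.11 to 4.01). Both products act against PKA. The G protein gamma subunit gene git11, whose product acts upstream of adenylate cyclase, was 2.10-fold lower (1.67 to 2.66). Of the repressors, scr1 had 808 counts in T3 against 1691 counts in T1, and rsv1 had 38 counts in T3 against 109 counts in T1. The corepressor gene ssn6 was 2.34-fold lower (2.17 to 2.53). Of 26 listed genes of glucose sensing, 5 were called and all 5 were lower. Outside that list reg1, a regulatory subunit of a protein phosphatase, was 2.26-fold higher in T3 (2.0 to 2.56), and gid2, whose product belongs to the ubiquitin ligase that removes enzymes of gluconeogenesis, had 247 counts in T3 against 50 counts in T1.

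Heat shock proteins refold or disperse damaged proteins. Their genes hsp16, ssa1 and hsp104 had 1351, 2159 and 1834 counts in T3 against 11905, 14341 and 7953 counts in T1. The Hsp40 gene psi1 was 3.17-fold lower in T3 (2.97 to 3.37). Lesser differences were those of fes1, which encodes the nucleotide exchange factor of Hsp70, at 2.12-fold lower (1.93 to 2.33), and of hsp3101, which encodes a glyoxalase, at 2.21-fold lower (2.0 to 2.44). Genes of J domain proteins went both ways, since SPCC63.13 had 83 counts in T3 against 26 counts in T1, and mib1 had 81 counts in T3 against 15 counts in T1.

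Of other stress genes, all 6 of those grouped by hand as general stress and trehalose were lower, 3 of them with the whole interval beyond 2-fold. In a list of 17 genes of trehalose and osmotic stress, 3 were called and went both ways, rds1 and pyp2 lower and osr1, described with the redox enzymes, higher. The tyrosine phosphatase Pyp2 switches off the stress MAP kinase Sty1, and pyp2 stood at 29.9 FPKM in T3 against 87.6 FPKM in T1 (2.93-fold lower, 2.64 to 3.25). The kinase Srk1 is activated by Sty1, and srk1 had 775 counts in T3 against 1700 counts in T1. The gene rds1 was 3.34-fold lower (3.19 to 3.48), at 237 FPKM in T3 against 791 FPKM in T1. Its level cannot be set apart from that of SPAC343.20, which overlaps it and was 3.46-fold lower (3.31 to 3.62). The genes ddr48 and whi2 were 2.06-fold lower (1.95 to 2.17) and 2.16-fold lower (1.80 to 2.60).

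The most strongly lowered gene with reads in both libraries was wwm3, for which no function was assigned. It had 55.5 FPKM in T3 against 1208 FPKM in T1 (21.7-fold lower, 19.7 to 24). Of the 67 genes without an assigned function 32 were higher and 35 lower in T3, and the lower ones included abundant genes such as rtc3, of the SBDS family, at 392 FPKM in T3 against 1783 FPKM in T1, and slt1 at 108 FPKM in T3 against 451 FPKM in T1. The short gene SPAPB18E9.05c stood at 1182 FPKM in T3 against 3629 FPKM in T1. SPCC1235.01 had 11576 counts in T3 against 27551 counts in T1. An abundant exception was an unnamed entry described as a sequence orphan, with 17449 counts in T3 against 8497 counts in T1 (2.02-fold higher, 1.97 to 2.08). The eisosome is a furrow of the plasma membrane, and the gene of its assembly protein, fhn1, was 2.42-fold lower (2.35 to 2.50) at 324 FPKM in T3 against 785 FPKM in T1. The phospholipase gene plb1 was 2.17-fold lower (2.12 to 2.21) at 812 FPKM in T3 against 1760 FPKM in T1.

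**Figure D5:**
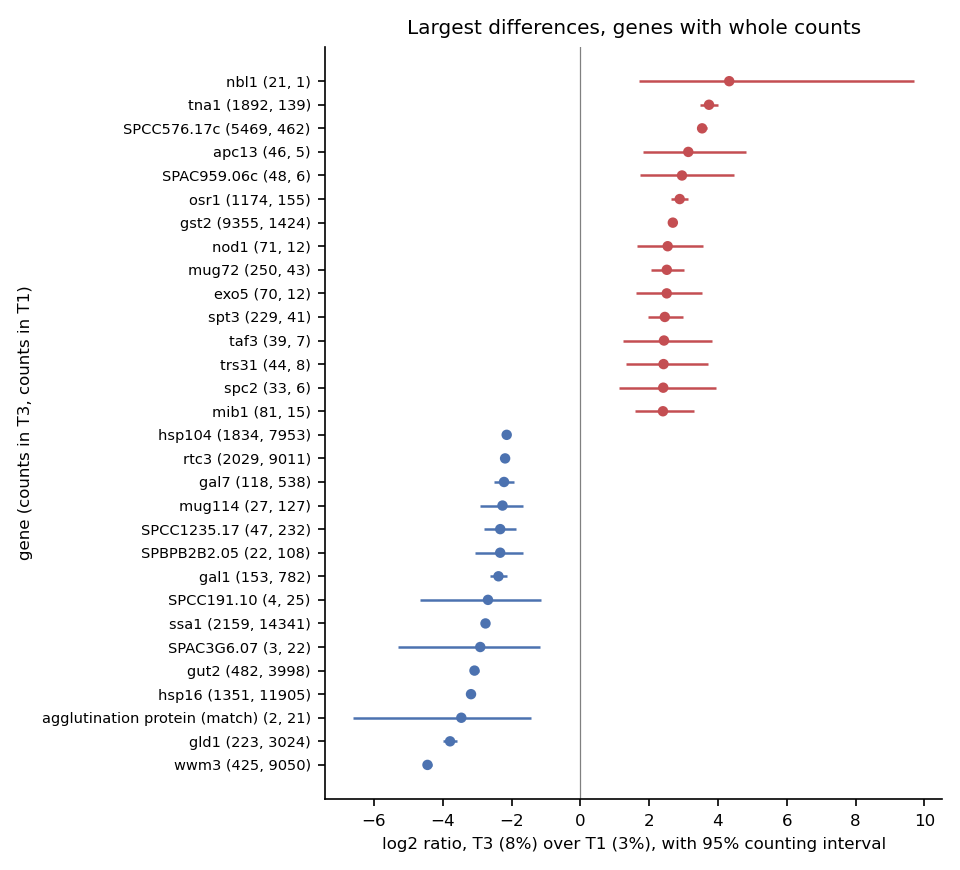
Log2 ratio of T3 over T1 (horizontal axis) for the 15 genes with the largest positive and the 15 with the largest negative ratio among genes with whole counts and at least 20 counts in sum, with counts in T3 and then T1 in brackets. Points are ratios and lines 95% counting intervals, which are wide for genes of few counts such as nbl1 (21 in T3, 1 in T1) and narrow for wwm3 (425 in T3, 9050 in T1).

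The called genes of ribosomal proteins, ribosome synthesis and core histones were lower, and nearly all of them were short. Among genes of at least 1000 bases, 0 of the 9 ribosomal protein genes, 2 of the 6 genes of ribosome synthesis and 1 of the 5 histone genes were left. Of 138 cytosolic ribosomal protein genes in the annotation, 9 were called and all 9 were lower in T3, between 2.05-fold and 2.56-fold. The highest level was that of rpl4101, at 2177 FPKM in T3 against 5528 FPKM in T1. The pair rpl4101 and rpl4102, which encode the small protein L41 of the large subunit, summed to 5160 counts in T3 against 12495 counts in T1. For the pair rps3001 and rps3002 the sums were 5313 counts in T3 against 11519 counts in T1. These transcripts were among the shortest of all, between 249 and 592 bases, and the other 129 genes of the annotation have no value here, so nothing follows for ribosomal protein genes as a class. Ribosome synthesis added 6 lower genes. Among them rrp7 and mak16, which act in rRNA processing and assembly, were 2.62-fold (2.27 to 3.03) and 2.29-fold (2.04 to 2.58) lower, and ker1, a subunit of RNA polymerase I, had 227 counts in T3 against 478 counts in T1.

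Of the 10 core histone genes, 5 were called and were all lower. The H2A gene hta1 stood at 400.3 FPKM in T3 against 1067 FPKM in T1, and the H3 gene hht1 at 529.7 FPKM in T3 against 1385 FPKM in T1. The H3 gene hht3 and the H4 gene hhf3, which are neighbours, were 2.11-fold (2.02 to 2.20) and 2.47-fold (2.32 to 2.63) lower. The row described as histone H4 h4.2 differed most, at 583 FPKM in T3 against 1956 FPKM in T1 (3.35-fold lower, 3.21 to 3.51). Summed over the 5, histone counts were 12047 in T3 against 30727 in T1. Histone mRNA is made mainly during S phase in growing cells. Polyadenylated RNA was selected here, and the share of cells in S phase was not measured.

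Mitochondrial genes of respiration and protein import went both ways, 4 higher and 4 lower, and 0 of the 4 higher ones had the whole interval beyond 2-fold. Lower were cox8, a short subunit gene of cytochrome c oxidase, at 226 FPKM in T3 against 837 FPKM in T1 (3.71-fold lower, 3.23 to 4.27), and SPCC417.16, at 523 FPKM in T3 against 1186 FPKM in T1. The protein match of SPCC417.16 is named as a homolog of a NADH dehydrogenase subunit, and the gene overlaps SPCC417.15, which was lower too. The rhomboid protease gene rbd3 was 3.89-fold lower (3.40 to 4.46). Higher were tim18 of the import machinery at 248 FPKM in T3 against 120.4 FPKM in T1 and osm1 of fumarate reductase at 95 FPKM in T3 against 44.4 FPKM in T1. All 7 called genes of mitochondrial translation and RNA were higher in T3, 4 of them with the whole interval beyond 2-fold. The ribosomal protein genes mrpl27 and mrpl20 had 75 and 194 counts in T3 against 20 and 61 counts in T1. The PPR proteins bind mitochondrial transcripts, and ppr5 and ppr1 were 2.62-fold (2.37 to 2.90) and 2.07-fold (1.90 to 2.26) higher. The tRNA amidotransferase gene gta1 and the translation factor gene sls1 were 2.13-fold (1.77 to 2.56) and 2.33-fold (1.86 to 2.93) higher. Of 50 mitochondrial ribosomal protein genes in the annotation, only these 2 were called.

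Enzymes of redox reactions and detoxification formed a large group among the higher genes, with 17 of 18 called members higher in T3. Glutathione S-transferase couples glutathione to reactive compounds, and gst2 had 9355 counts in T3 against 1424 counts in T1. The quinone reductase gene obr1 reached the highest FPKM of any called gene in T3, 4389 FPKM against 1675 FPKM in T1 (2.62-fold higher, 2.56 to 2.69). The flavohemoglobin gene yhb1, whose product converts nitric oxide, stood at 236 FPKM in T3 against 52.9 FPKM in T1 (4.45-fold higher, 4.08 to 4.87). Neighbouring dehydrogenase genes osr1 and SPCC663.08c were 7.41-fold (6.26 to 8.81) and 4.51-fold (3.81 to 5.37) higher. Transport of glutathione conjugates into the vacuole is the task of Abc2, and abc2 was 2.94-fold higher (2.61 to 3.31). Ergothioneine is a sulfur-containing antioxidant made by Egt1, and egt1 stood at 102 FPKM in T3 against 37.2 FPKM in T1. It overlaps ppr1, which was higher too. Aldo-keto reductase genes belonged here as well, with SPBC215.11c at 295 FPKM in T3 against 128 FPKM in T1, and SPAC977.14c, which shares reads, at 1423 FPKM in T3 against 672 FPKM in T1. The dehydrogenase gene SPCC1739.08c was the exception, at 32.7 FPKM in T3 against 119 FPKM in T1, and it overlaps cti1, which was lower too.

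Of 31 genes in a list of oxidative stress and redox, 4 were called, all higher in T3, namely gst2, yhb1, obr1 and caf5. The other higher redox enzymes were thus not on that list.

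Genes for B vitamins, heme and cofactors were higher in 8 of 9 cases, and among them were tna1 and SPCC576.17c, the genes with the largest increases after nbl1 among genes with whole counts in both libraries. The nicotinic acid transporter gene tna1 stood at 159 FPKM in T3 against 11.9 FPKM in T1, with 101 FPKM at 5% glucose. SPCC576.17c, annotated as a transporter of the vitamin B6 forms pyridoxine, pyridoxal and pyridoxamine, stood at 428 FPKM in T3 against 36.8 FPKM in T1 (11.6-fold higher, 10.6 to 12.8). Pyridoxal reductase interconverts these forms, and its genes plr1 and akr7 were 2.67-fold (2.54 to 2.79) and 3.11-fold (2.11 to 4.68) higher. In the opposite direction SPBC725.03, annotated as a pyridoxamine phosphate oxidase, was 2.75-fold lower (2.47 to 3.05). For thiamine, tnr3 of thiamine diphosphokinase was 2.22-fold higher (1.97 to 2.51). For riboflavin, rib2 had 98 counts in T3 against 26 counts in T1. Heme synthesis was represented by hem13 at 436 FPKM in T3 against 187 FPKM in T1 and by hem4 at 208 FPKM in T3 against 97.8 FPKM in T1. The hem4 gene overlaps spk1, which was also higher, and their reads may not be separable.

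Other membrane transporters went both ways, 13 higher and 8 lower. Among the higher were itr2, which carries myo-inositol, at 681 FPKM in T3 against 254 FPKM in T1 (2.68-fold, 2.57 to 2.79), the nickel and cobalt transporter gene nic1 at 2.66-fold (2.24 to 3.18) and the proton pump gene pma2, with 207 counts in T3 against 48 counts in T1. The spermine transporter gene caf5 was 2.22-fold higher (1.92 to 2.57). Lower were the phosphate transporter gene pho842 at 75.6 FPKM in T3 against 159 FPKM in T1, the amino acid permease gene aat1 with 77 counts in T3 against 235 counts in T1, and SPCC794.04c at 65.7 FPKM in T3 against 227 FPKM in T1. SPCC1529.01 lies between ght1 and gcd1 on chromosome III and was lower like both, at 9.76 FPKM in T3 against 32.9 FPKM in T1.

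Sulfate assimilation starts with sulfate adenylyltransferase, whose gene sua1 was 2.22-fold higher in T3 (2.15 to 2.30), at 1199 FPKM in T3 against 539 FPKM in T1. The homocysteine synthase gene met17, which acts later in the same path, was 2.07-fold lower (1.89 to 2.27). The dUTPase gene dut1 was 3.55-fold lower (3.13 to 4.03), and it overlaps pct1, which was lower too. The uracil phosphoribosyltransferase gene urg2 lies next to tna1 and was 2.48-fold higher (1.93 to 3.19).

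Genes of pheromone response and mating were higher in 11 of 12 cases, of which 5 had the whole interval beyond 2-fold. M cells sense the P-factor of their partners through the receptor Mam2, and mam2 stood at 211 FPKM in T3 against 76.3 FPKM in T1. Downstream, the G protein alpha subunit gene gpa1 was 2.17-fold higher (1.97 to 2.39), ste6, which encodes the activator of Ras, was 2.26-fold higher (2.06 to 2.49), and spk1 of the pheromone MAP kinase was 2.59-fold higher (2.41 to 2.78). The brakes of the pathway were higher together with its drivers. Rgs1 turns the G protein off, and rgs1 stood at 96.0 FPKM in T3 against 29.5 FPKM in T1, while sxa2, whose product degrades P-factor, was 2.18-fold higher (1.78 to 2.69). The agglutinin gene mam3 had 3548 counts in T3 against 693 counts in T1. M-factor is methylated by Mam4, and mam4 was 2.02-fold higher (1.83 to 2.23). The claudin-like genes dni1 and dni2, which act in cell fusion, had 63 and 114 counts in T3 against 25 and 41 counts in T1. The gene pac2, whose product holds back sexual development, was 2.07-fold higher (1.85 to 2.33). The exception was the entry mat3-Mc, with 0 counts in T3 against 455 counts in T1 (at least 154-fold lower). Its count was fractional, and its copy mat1-Mc has no value here, so a fall of Mc RNA as a whole cannot be read from it. Of 33 listed mating genes 9 were called, and the other 24 have no value here.

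Genes known from meiosis and sporulation were higher in 14 of 17 cases, of which 5 had the whole interval beyond 2-fold. The genes rec12, which encodes the nuclease that starts recombination, and rec15, which encodes its partner, had 130 and 53 counts in T3 against 55 and 19 counts in T1. Activators of the anaphase-promoting complex in meiosis are encoded by mfr1 and fzr3, with 146 and 136 counts in T3 against 41 and 42 counts in T1. The sporulation gene spo7 was 2.30-fold higher (1.92 to 2.77). Lower in T3 were mug114 with 27 counts in T3 against 127 counts in T1, mug35 at 61.4 FPKM in T3 against 139.8 FPKM in T1, and the spore wall gene meu10 at 3.15 FPKM in T3 against 7.17 FPKM in T1. Of 82 listed meiotic genes, 10 were called higher and 2 lower.

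Of 9 called entries grouped by hand as kinetochore and chromosome segregation, 8 were higher, and 2 of the 9 were matched to the same protein, Mis15. A list of 57 genes of the kinetochore, passenger and DASH complexes had 8 called entries, 7 higher and 1 lower, both Mis15 entries among them. The inner kinetochore genes mis6 and mis18, needed to load the centromeric histone, had 106 and 63 counts in T3 against 25 and 15 counts in T1. The outer kinetochore scaffold gene spc7 stood at 14.4 FPKM in T3 against 5.71 FPKM in T1, and the shugoshin gene sgo1, whose product protects cohesion in meiosis, at 27.3 FPKM in T3 against 13.2 FPKM in T1. The inner nuclear membrane gene ima1 was the best counted, with 1191 counts in T3 against 440 counts in T1 (2.67-fold higher, 2.39 to 2.98). The chromosome passenger gene nbl1 rested on 21 counts in T3 against 1 count in T1, and its interval ran from 3.23 to 831. A pair of entries matched to Mis15 shared reads and went opposite ways, and in sum had 95 counts in T3 against 58 counts in T1, a ratio of 1.62 (1.15 to 2.28). The anaphase-promoting complex itself showed no common direction. Its subunit genes apc13 and apc15 had 46 and 52 counts in T3 against 5 and 13 counts in T1, while apc10 had 50 counts in T3 against 102 counts in T1 and slp1, which encodes its mitotic activator, had 281 counts in T3 against 611 counts in T1.

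All 10 called genes of cell polarity and actin were higher in T3. Cdc42 sets the growing ends of the cell, and its exchange factor gene gef1 stood at 56.7 FPKM in T3 against 17.6 FPKM in T1 (3.22-fold, 2.82 to 3.68). The gene nod1, placed in this group by hand, had 71 counts in T3 against 12 counts in T1. Actin cables at cell ends are nucleated by the formin For3 with the help of Bud6, and for3 and bud6 were 2.09-fold (1.75 to 2.50) and 2.62-fold (2.23 to 3.09) higher. The coronin gene crn1, for an actin-binding protein, was 3.95-fold higher (3.08 to 5.12). The kinesin Tea2 moves polarity factors along microtubules, and tea2 stood at 10.5 FPKM in T3 against 2.17 FPKM in T1. The kinase gene shk2, for a target of Cdc42, and clp1, for a Cdc14 family phosphatase that acts at cell division, were 2.28-fold (1.72 to 3.07) and 2.75-fold (2.08 to 3.69) higher. Genes of the cell wall and cell surface were higher in 5 of 7 cases, a share near the 64.0% of all genes, with bgl2 of a beta-glucan enzyme at 393 FPKM in T3 against 105 FPKM in T1 (3.75-fold, 3.5 to 4.04), eng2 of an endoglucanase at 2.68-fold higher (2.29 to 3.14), mok13 of an alpha-glucan synthase at 2.35-fold higher (2.14 to 2.59) and chs1 of a chitin synthase at 2.08-fold higher (1.75 to 2.49). The lower pair were fhn1 and an entry matched to a cell-type specific agglutination protein, with 2 counts in T3 against 21 counts in T1 (11-fold lower, 2.69 to 96.8).

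Of kinase and cyclin genes 5 were higher and 1, oca2, was lower. The cyclin gene clg1 and the kinase gene pef1, of the Pho85 type, were 2.97-fold (2.65 to 3.34) and 3.40-fold (2.46 to 4.78) higher, and mcs6 of the TFIIH kinase stood at 173 FPKM in T3 against 56.7 FPKM in T1. The lower gene oca2 was at 98.7 FPKM in T3 against 201 FPKM in T1.

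The general transcription machinery was higher in 10 of 11 cases. SAGA and TFIID bring the TATA-binding protein to promoters, and their subunit genes spt3 and taf3 had 229 and 39 counts in T3 against 41 and 7 counts in T1. Mediator links activators to RNA polymerase II. Its kinase module was represented by med13, srb10 and the row matched to Srb8, at 4.01-fold (2.94 to 5.56), 2.53-fold (1.76 to 3.68) and 2.91-fold (2.45 to 3.48) higher, and its tail by med15 at 2.31-fold higher (1.99 to 2.69). For RNA polymerase III, the TFIIIC subunit gene sfc4 had 623 counts in T3 against 163 counts in T1. The polymerase assembly gene rba50 was the lower one, at 13.9 FPKM in T3 against 31.1 FPKM in T1. Of 50 listed subunits of SAGA, TFIID and Mediator, 6 were called, all higher.

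Among DNA-binding factors, the calcineurin target Prz1 acts in the calcium response, and prz1 stood at 135 FPKM in T3 against 44.5 FPKM in T1 (3.04-fold higher, 2.81 to 3.28). Pho7 activates genes of phosphate uptake, and pho7 was 3.25-fold higher (2.83 to 3.75). Sre1 controls sterol synthesis and the response to low oxygen, and sre1 was 2.08-fold higher (1.93 to 2.25). Lower in T3 were the coactivator gene mbf1, at 296 FPKM in T3 against 805 FPKM in T1, and the factor genes SPCC320.03 and SPBC56F2.05c, with 993 and 260 counts in T3 against 3440 and 643 counts in T1.

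All 8 called genes of chromatin and RNAi silencing were higher, 1 of them with the whole interval beyond 2-fold. Argonaute and Tas3 are subunits of the RITS complex that brings silencing to centromeric repeats, and ago1 stood at 39.2 FPKM in T3 against 18 FPKM in T1 (2.18-fold, 1.88 to 2.53) and tas3 at 22 FPKM in T3 against 9.58 FPKM in T1 (2.30-fold, 1.85 to 2.88). The silencing complex SHREC was represented by clr2, with 226 counts in T3 against 75 counts in T1. Set1C methylates histone H3, and its subunit genes swd3 and spf1 were 2.45-fold (1.85 to 3.27) and 2.89-fold (1.92 to 4.46) higher. The remodelling complexes were represented by swc5 and alp5. The log2 ratios of the group ran from 1.03 to 1.57. Counts ranged from 94 in T3 against 32 in T1 for spf1 to 770 in T3 against 371 in T1 for alp5. Of 61 genes in a list of chromatin and silencing only 3 were called.

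Of 13 called genes grouped by hand as DNA replication and repair, 11 were higher and 2 lower. In a list of 76 genes of replication and repair only 7 were called, all higher. Higher were brc1 of a BRCT protein at 3.28-fold (2.60 to 4.17), pol4 of a repair polymerase at 2.96-fold (2.22 to 4.0), elg1 of a replication factor C complex at 2.50-fold (2.07 to 3.02) and top3 of topoisomerase III at 2.59-fold (2.02 to 3.35). In recombination, rad52 and rad55 were 2.06-fold (1.66 to 2.58) and 2.31-fold (1.72 to 3.13) higher, and in mitochondrial DNA maintenance exo5 had 70 counts in T3 against 12 counts in T1. Both lower genes overlap another lower gene. The helicase gene chl1, with 1748 counts in T3 against 3751 counts in T1, overlaps the very abundant rpl4101, and saw1 overlaps tsr2 of rRNA processing. Their own levels cannot be told apart from those of their partners.

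RNA processing was mixed, with 12 genes higher and 8 lower. Higher were genes of tRNA processing and modification, namely trz2 at 2.16-fold (1.79 to 2.61), trm2 at 3.27-fold (2.42 to 4.50) and rit1 at 3.75-fold (2.55 to 5.64), and rpp1 and rmp1 of the RNase P and RNase MRP family, with 66 and 50 counts in T3 against 17 counts each in T1. Lower genes included some of RNA decay. The decapping subunit gene dcp1 stood at 17.8 FPKM in T3 against 50.2 FPKM in T1, and the exosome-associated mpp6 and cti1 at 41.3 and 44.4 FPKM in T3 against 115 and 120.2 FPKM in T1. The cti1 gene overlaps SPCC1739.08c, which was lower too. The spliceosomal gene snp27 was 2.90-fold lower (2.62 to 3.22).

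Of 20 called genes grouped by hand as secretion, vesicle traffic and glycosylation, 17 were higher. In 10 of the 20 the whole interval lay beyond 2-fold. Of 66 listed genes of the secretory pathway and vesicle traffic, 5 were called, 4 higher and 1 lower. Transport from the endoplasmic reticulum to the Golgi uses the TRAPP complex, whose genes trs31 and bet5 had 44 and 53 counts in T3 against 8 and 21 counts in T1. Sorting between endosome and Golgi was represented by snx3, with 100 counts in T3 against 22 counts in T1, snx12 at 2.37-fold (2.0 to 2.82) and vps51 at 3.84-fold (2.23 to 6.98), and the multivesicular body by bro1, with 226 counts in T3 against 42 counts in T1. Protein disulfide isomerases help proteins fold in the endoplasmic reticulum, and pdi3, pdi4 and pdi5 were each higher, pdi3 at 137 FPKM in T3 against 65.5 FPKM in T1. The GPI anchor genes gpi3 and gpi14 were 3.08-fold (2.22 to 4.34) and 2.05-fold (1.67 to 2.52) higher. The lower ones included grp2 and sft1 of the Golgi, at 85.8 and 49.2 FPKM in T3 against 208 and 99.3 FPKM in T1.

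All 6 called genes grouped by hand as autophagy and peroxisome were higher, 3 of them with the whole interval beyond 2-fold. Of 33 listed genes of autophagy and vacuolar proteases, only 3 were called, all higher. Atg11 is a scaffold of selective autophagy, and atg11 stood at 43.0 FPKM in T3 against 17.5 FPKM in T1. Atg38 belongs to the lipid kinase complex of autophagy, and atg38 was 3.08-fold higher (2.60 to 3.67). The peroxisome biogenesis genes pex6 and pex8 were 2.02-fold (1.76 to 2.32) and 2.10-fold (1.64 to 2.71) higher. Protein tagging added pub3 and pof15, at 2.51-fold (2.21 to 2.86) and 2.34-fold (2.12 to 2.59) higher, and ubc12 of the NEDD8 path, with 60 counts in T3 against 22 counts in T1. Lipid genes were mixed, 4 higher and 3 lower. The lower were say1, plb1 and the4, a thioesterase gene at 68.1 FPKM in T3 against 143 FPKM in T1 (2.09-fold lower, 1.83 to 2.39). The phospholipase gene cld1, which acts on cardiolipin of mitochondria, stood at 127 FPKM in T3 against 44.0 FPKM in T1, and mdm12, whose product tethers mitochondria to the endoplasmic reticulum, had 101 counts in T3 against 29 counts in T1.

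Repeated sequences need care, since their reads were divided by estimation. The Tf2 retrotransposons are near-identical long terminal repeat elements of which 6 of 13 annotated copies were called, all higher. Tf2-4 had 829.6 counts in T3 against 0 counts in T1 (at least 273-fold higher), and Tf2-5, Tf2-6 and Tf2-12 had the same 460.4 counts each in T3 against 0.23 counts each in T1 (at least 152-fold higher). Copies with counts in both libraries differed far less, with Tf2-7 at 2.33-fold (2.15 to 2.53) and Tf2-11 at 3.19-fold (2.12 to 5.01). Summed over the 6 copies, which removes the division among them but not that with the 7 other copies, there were 4265 counts in T3 against 858 counts in T1, a ratio of 4.91 (4.56 to 5.29). The SPBPB10D8 transporter genes form a tandem array and show why a sum is needed. SPBPB10D8.06c had 685 counts in T3 against 0 counts in T1 (at least 226-fold higher) and SPBPB10D8.05c 27.2 counts in T3 against 1.15 counts in T1, while SPBPB10D8.04c had 55.1 counts in T3 against 415 counts in T1 and SPBPB10D8.07c 542 counts in T3 against 1133 counts in T1. Over the 4 copies the sums were 1310 counts in T3 against 1549 counts in T1, a ratio of 0.835 (0.775 to 0.899). The opposite directions of single copies were thus not seen in their sum. The entry SPAC959.11 also shared reads and had 0 counts in T3 against 99 counts in T1 (at least 33.4-fold lower).

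Along the chromosomes, 338 of the genes could be placed in the gene order of assembly ASM294v3, and 48 pairs of them were direct neighbours. Of these pairs 19 were both higher in T3, 22 were both lower and 7 were of opposite direction. In 14 pairs the genes overlap, and all 14 had the same direction. Counting by strand is not described, and the part of reads shared by overlapping genes in these values was not tested. Pairs that do not overlap included tna1 with urg2, osr1 with SPCC663.08c, rsv1 with rbd3, inv1 with SPCC191.10 and the histone genes hht3 with hhf3. Opposite neighbours included clg1, higher in T3, with scr1, lower in T3.

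At 5% glucose (the T2 sample) a value was present for 161 of the 367 genes, those also called in another comparison of the series, which share libraries with this one. Of 86 such genes higher in T3, 79 lay between T1 and T3 at 5% glucose, 4 above both and 3 below both. Of 75 lower in T3, 37 lay between, 35 lay above both and 3 below both. A 5% value depended on a call against the 5% library, so that selection shaped these splits. They do not describe the called genes without a 5% value. Examples of the genes that lay between were plr1 at 368, 467 and 982 FPKM and yhb1 at 52.9, 73.5 and 236 FPKM at 3%, 5% and 8% glucose. An example above both was plb1, at 1760, 3016 and 812 FPKM at 3%, 5% and 8% glucose.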

How the data were processed

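The T3 (8% glucose) and T1 (3% glucose) libraries were compared. The methods of the study state that the authors cleaned reads with SOAPnuke 1.5.6, mapped them to genome and genes with BWA 0.7.12 and Bowtie 1.1.2, and quantified genes with RSEM 1.2.25. From RSEM the deposited tables hold an expected count per gene, possibly fractional, and an FPKM computed by the authors from count, length and library size. The authors called genes by a Poisson method and NOIseq 2.14.1, and their columns of log2 ratios and p-values were not used. No genome build is named in the sources used here.

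Ratios of FPKM and 95% Clopper-Pearson intervals from rounded counts were computed with Python 3.11.15, numpy 2.4.6, pandas 2.3.3, scipy 1.17.1 and matplotlib 3.10.9, and the calculation was tested on simulated data. The depth implied by counts and FPKM was taken from a fit against transcript length. Names came from assembly ASM294v3 for 322 genes and from the table's description for 16, and 29 remained without a name, some of which are called by their protein match. Genes, 38 gene lists and 32 functions were chosen with earlier results of these data known. Named genes were the 15 largest ratios each way with whole counts and at least 20 counts in sum, the 10 most abundant each way, genes at 0 in a library, and up to 8 members of each list or function, and others were named after their values were seen. A planned search of promoter sequences was not run, as the build is not named. Alternatives were a 4-fold limit, intervals beyond 2-fold, at least 10 FPKM, a pseudocount of 1 FPKM, at least 1000 bases, no scaling, and no fractional counts. The values of some members of the polarity group are not reported here.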

Additional observations from a re-analysis of the deposited data

How the results depend on the processing

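The 235 higher and 132 lower genes became 38 and 23 at a log2 ratio of at least 2, and 125 higher genes had the whole interval beyond 2-fold. Among genes of at least 1000 bases 83 were lower. Members of the gene lists that were higher numbered 57 with the whole interval beyond 2-fold. Of 245 named ratios, 243 stayed within their counting interval with a pseudocount of 1 FPKM and 241 with no scaling. None was reversed, but neither setting could reverse a called gene. A pseudocount cannot change the direction of a ratio, and the libraries were of nearly equal depth. Leaving the scaling out shifted the log2 ratios by a median of 0.027. Counts of higher and lower genes per function stayed within 1.5 times in 335 of 384 recomputed values. With the whole interval beyond 2-fold, higher genes numbered 5 in pheromone response, 5 in meiosis, 5 in general transcription, 6 in DNA repair, 9 in secretion, 6 in RNA processing, 4 in mitochondrial translation, 3 in autophagy, 1 in chromatin and 0 in respiration. Among genes of at least 1000 bases, 0 ribosomal protein genes, 1 histone gene and 2 genes of ribosome synthesis were lower. Without fractional counts 4 other transporters were lower and 0 Tf2 copies were left. With a pseudocount of 1 FPKM the log2 ratio was 2.06 for SPBPB10D8.05c and -0.93 for the entry matched to an agglutination protein, and with no scaling it was -0.96 for rps3002. No paired analysis was possible because each concentration has 1 library, so leaving out a replicate was not possible either. Counting error limits genes of few counts, such as nbl1 and taf3.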
